A study of Mus musculus with 12 samples.

Results

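Brown fat burns fuel to make heat, and 8 genes of that programme were followed across mouse lung arrays: Ucp1, Cidea, Ppargc1a, Cox7a1, Cox8b, Elovl3, Dio2 and Fabp3. They are 8 of 18193 genes to which the platform annotation ties at least 1 probe set alone. Each gene was read from the probe set of highest mean over 12 arrays. The genes were chosen by their levels on these same arrays, where earlier results had shown Ucp1 and others to vary together, and as known brown fat markers. Their levels are therefore a description with no test of its own, and the fits below are given for their values only. The study asked whether simvastatin, a drug that blocks cholesterol synthesis, limits injury of the irradiated lung. Lungs of wild-type mice were hybridised to 12 Affymetrix arrays in 4 groups of 3. Control mice, 8 to 10 weeks old, received vehicle, and the mice of the other groups were 8 to 12 weeks old. The radiation group received 25 Gy once and was examined 6 weeks later. The simvastatin group received 10 mg/kg by repeated intraperitoneal injection, and the combined group received the same drug course together with 25 Gy and was examined at 6 weeks. In every comparison with control, age and treatment cannot be told apart.

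Brown adipocytes are packed with mitochondria, and Ucp1, the uncoupling protein of their inner membrane, lets protons flow back without making ATP, which releases heat. Cold makes sympathetic nerves release noradrenaline, whose receptors raise cyclic AMP in the adipocyte. Cyclic AMP then frees fatty acids as fuel and activates CREB, a factor that binds the cyclic AMP response element (CRE) of target genes. Brown fat is not a cell type of the lung itself, but depots lie close by in the chest and between the shoulder blades. Several of the 8 genes are not specific to brown fat: Cox7a1, Cox8b and Fabp3 are also made in heart and skeletal muscle, and Ppargc1a in many cells rich in mitochondria.

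Promoter sequence is shown for 4 of these genes: Ucp1, Dio2 and Ppargc1a, which carry the core of the CRE, and Cox8b, which does not. Fabp3 also carries it and Cox7a1 does not. Any link between these letters and the array values was not tested. Promoter sequences from RefSeq's GRCm38.p6 were at hand for 6 of the 8 genes, and not for Cidea and Elovl3. Each line gives the 250 bases before the annotated start, on the strand of the gene: Ucp1 at chr8:83290098-83290347 (plus strand), Dio2 at chr12:90739039-90739288 (minus), Ppargc1a at chr5:51567726-51567975 (minus) and Cox8b at chr7:140900447-140900696 (minus). Capitals mark the CRE core TGACG and the nuclear receptor core AGGTCA, on either strand.
Ucp1: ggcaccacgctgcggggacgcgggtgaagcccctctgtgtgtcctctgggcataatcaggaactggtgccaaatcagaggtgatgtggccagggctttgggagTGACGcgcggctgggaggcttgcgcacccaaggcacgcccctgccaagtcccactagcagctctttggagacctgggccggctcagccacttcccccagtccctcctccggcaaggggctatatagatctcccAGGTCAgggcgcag
Dio2: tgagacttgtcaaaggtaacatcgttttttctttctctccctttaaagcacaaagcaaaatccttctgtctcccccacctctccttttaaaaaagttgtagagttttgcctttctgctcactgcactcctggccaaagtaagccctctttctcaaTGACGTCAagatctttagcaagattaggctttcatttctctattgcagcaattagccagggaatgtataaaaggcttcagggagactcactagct
Ppargc1a: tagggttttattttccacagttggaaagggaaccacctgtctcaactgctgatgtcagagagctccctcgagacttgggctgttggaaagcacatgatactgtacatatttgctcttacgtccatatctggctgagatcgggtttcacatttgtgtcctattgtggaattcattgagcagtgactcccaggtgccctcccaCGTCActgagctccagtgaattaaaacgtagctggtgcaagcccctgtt
Cox8b: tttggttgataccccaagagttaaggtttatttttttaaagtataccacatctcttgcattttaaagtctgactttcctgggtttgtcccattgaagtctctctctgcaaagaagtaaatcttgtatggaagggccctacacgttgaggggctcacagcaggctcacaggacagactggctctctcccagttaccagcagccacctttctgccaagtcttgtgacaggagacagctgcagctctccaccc

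The full CRE, TGACGTCA, was present in the Dio2 window, from 95 to 88 bases before the start, and in 1.55% of 32817 windows of 250 bases. It contains the core on both strands. The core TGACG was present in 17.75% of all windows. Beside Dio2 it lay in Ucp1 from 147 to 143, in Ppargc1a from 49 to 45 on the opposite strand, and in Fabp3 from 149 to 145 bases before the start. AGGTCA, present in 14.03% of windows, lay in Ucp1 from 14 to 9 bases before the start. The 2 longer elements that contain AGGTCA, the PPAR element (a direct repeat of it with 1 base between) and TCAAGGTCA of the ERR receptors, matched 0.03% and 0.39% of all windows and none of the 6. TATAAA, present in 12.37% of windows, lay in Dio2 from 30 to 25 bases before the start. All motifs were searched on both strands, and a match describes letters, not binding. The Cox8b and Cox7a1 windows held none of these motifs.

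Values are deposited log2 intensities, on which 1 unit is a doubling, and they cannot be compared between probe sets. The median of all values was 4.85, and values under the 25th percentile, 2.38, have no order among themselves. The tissue markers of lung were present throughout: Sftpc, the surfactant protein of alveolar type 2 cells, lay between 15.57 and 15.84, the narrowest range of 8 lung markers. On control 1, the array of highest Ucp1, the mean of the 8 relative to 12 arrays was -0.63, against -0.20 to 0.22 on the other arrays, and Sftpb, Sftpa1, Ager, Cldn18, Cldn5 and Hopx were at their lowest. Simvastatin 1, simvastatin 3 and combined 3 were nearly the same array. Over 10370 bright probe sets, log2 differences between them had an SD of 0.111 to 0.118, against 0.337 or more in the other 63 pairs. Simvastatin 1 and 3 were therefore averaged, so n = 2 for simvastatin and n = 3 for the other groups. Combined 3 kept its own label. Cdkn1a, a p53 target that radiation raises, went against the label on 3 arrays: it read 13.01 on control 3, 11.18 on combined 3 and 13.36 on simvastatin 2. The labels do not tie each array to an animal of its own, so the p-values cover only the spread between these samples, which may be technical.

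Ucp1, the gene of the heat-making protein itself, was either high or at background. It read 12.89 on control 1, 2.20 on control 2 and 12.28 on control 3. The radiation arrays read 2.26, 8.74 and 2.24, and the combined arrays 12.58, 10.49 and 2.21. Simvastatin arrays read 2.32, 2.28 and 2.22. Ucp1 thus exceeded the median of all values on 5 arrays, in each group except simvastatin, and fell under the 25th percentile on the other 7. The groups overlapped, and the SD of the control group, 6.01 around a mean of 9.12, was larger than any difference between groups other than that from simvastatin. The mean was 8.43 ± 5.49 (SD, n = 3) in the combined group, 4.41 ± 3.75 (SD, n = 3) after radiation and 2.28 ± 0.0077 (SD, n = 2) with simvastatin.

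Cidea, a lipid droplet protein typical of brown adipocytes, was highest on the same arrays as Ucp1. It read 12.69, 3.78 and 11.05 on controls 1 to 3, and 6.03, 8.62 and 6.83 on the radiation arrays. It read 12.83, 11.21 and 5.33 on the combined arrays, and 5.94, 6.25 and 6.06 on the simvastatin arrays. The 5 highest Cidea values fell on the 5 arrays with Ucp1 above background, and the lowest on control 2. Unlike Ucp1, Cidea exceeded the median of all values on 11 of 12 arrays.

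**Figure D1:**
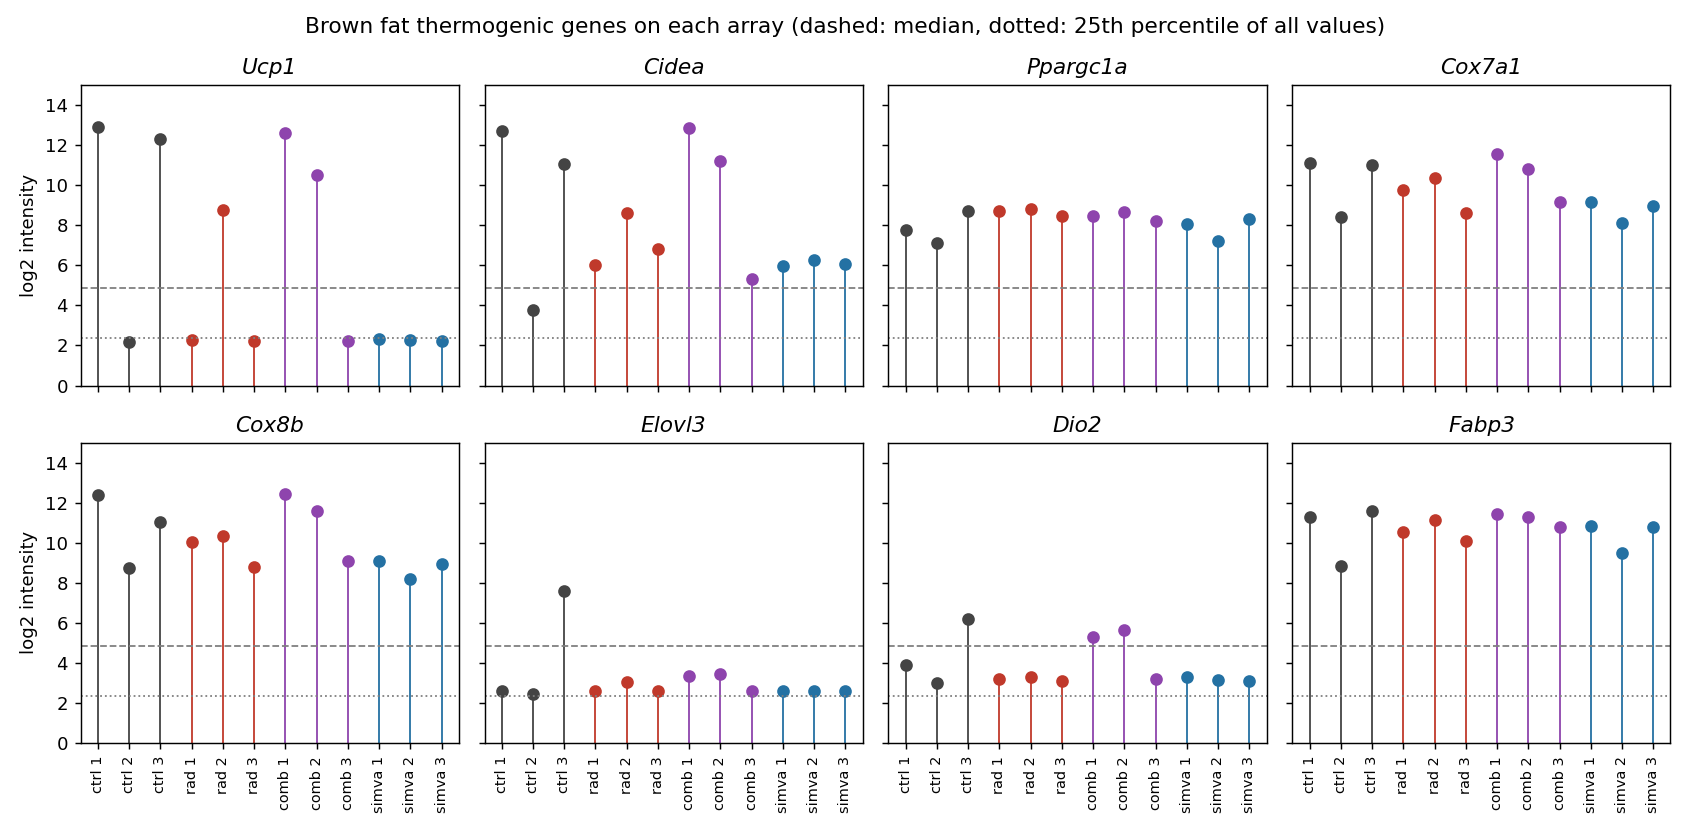
Log2 intensity (vertical axis) of the 8 brown fat genes on each of 12 arrays (ctrl, control; rad, radiation; comb, combined; simva, simvastatin), 1 point per array, with the median of all values dashed and the 25th percentile dotted. Ucp1 reads 8.74 to 12.89 on 5 arrays and at most 2.32 on the other 7, while Ppargc1a stays between 7.10 and 8.83 and Elovl3 rises to 7.61 on control 3.

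Dio2 and Elovl3 are genes of activated brown fat: Dio2 encodes the deiodinase that makes active thyroid hormone inside the cell, and Elovl3 an enzyme that lengthens fatty acids. Dio2 read 3.89, 3.0 and 6.18 on controls 1 to 3, and 5.29, 5.66 and 3.22 on the combined arrays. The radiation arrays read 3.23, 3.30 and 3.09 and the simvastatin arrays 3.30, 3.15 and 3.12. Dio2 thus peaked on control 3 rather than on control 1, where Ucp1 was highest, and did not leave its low range on radiation 2, where Ucp1 read 8.74. Elovl3 read 7.61 on control 3 and between 2.48 and 3.43 on the other 11 arrays. It was above the median of all values on 1 array, too few to pass the filter, so it was left out of the tests. The 2 other Dio2 probe sets did not exceed the median on any array. One of them peaked on combined 1, at 3.33, and read 2.44 on both control 1 and control 3.

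Fabp3 carries fatty acids in the cytoplasm of brown fat and muscle. Its lowest values were 8.83 on control 2 and 9.48 on simvastatin 2, and the other 10 arrays lay between 10.09 and 11.56. On combined 3, simvastatin 1 and simvastatin 3 it read 10.80, 10.86 and 10.76, although Ucp1 was at background there. A second Fabp3 probe set did not exceed 2.25.

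Cox7a1 and Cox8b are the forms of 2 cytochrome c oxidase subunits that brown fat and muscle use. Cox7a1 read 11.13, 8.40 and 11.01 on controls 1 to 3, 9.77, 10.35 and 8.61 on the radiation arrays, 11.54, 10.78 and 9.17 on the combined arrays, and 9.15, 8.13 and 8.96 on the simvastatin arrays. Cox8b read 12.39, 8.74 and 11.05 on controls, 10.05, 10.33 and 8.80 after radiation, 12.42, 11.58 and 9.10 in the combined group and 9.09, 8.17 and 8.93 with simvastatin. Both were highest on combined 1 and lowest on simvastatin 2, and both were detected on all 12 arrays. Their widespread counterparts varied far less within their own probe sets. Cox7a2 ranged from 13.50 to 13.99 and Cox8a from 10.20 to 10.97. Radiation 1 stood out here: Cox7a1 and Cox8b were above those of radiation 3 although Ucp1 was at background on both.

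Ppargc1a encodes the coactivator PGC-1alpha, which drives mitochondrial biogenesis and, in brown fat, Ucp1 itself. On the probe set used it spanned 1.73 log2 units and had a correlation of 0.366 with Ucp1. It read 7.77, 7.10 and 8.69 on controls 1 to 3, 8.69, 8.83 and 8.45 after radiation, 8.45, 8.68 and 8.21 in the combined group and 8.05, 7.20 and 8.31 with simvastatin. Control 1, the array of highest Ucp1, had lower Ppargc1a on this probe set than all arrays but control 2 and simvastatin 2. Its probe set is of a kind that can share probes with other transcripts, but 4 more probe sets exceeded the median on all 12 arrays. Over 12 arrays these had Pearson correlations of 0.936, 0.894, 0.910 and 0.639 with it. They spanned 2.37, 2.10, 2.76 and 2.33 log2 units, each more than the probe set used. In the same order, their correlations with Ucp1 over 11 samples were 0.297, 0.414, 0.369 and 0.663. The last of them read 7.35 to 8.49 on the 5 arrays with Ucp1 above background and 6.16 to 7.98 on the other 7, with 5 arrays below control 1.

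**Figure D2:**
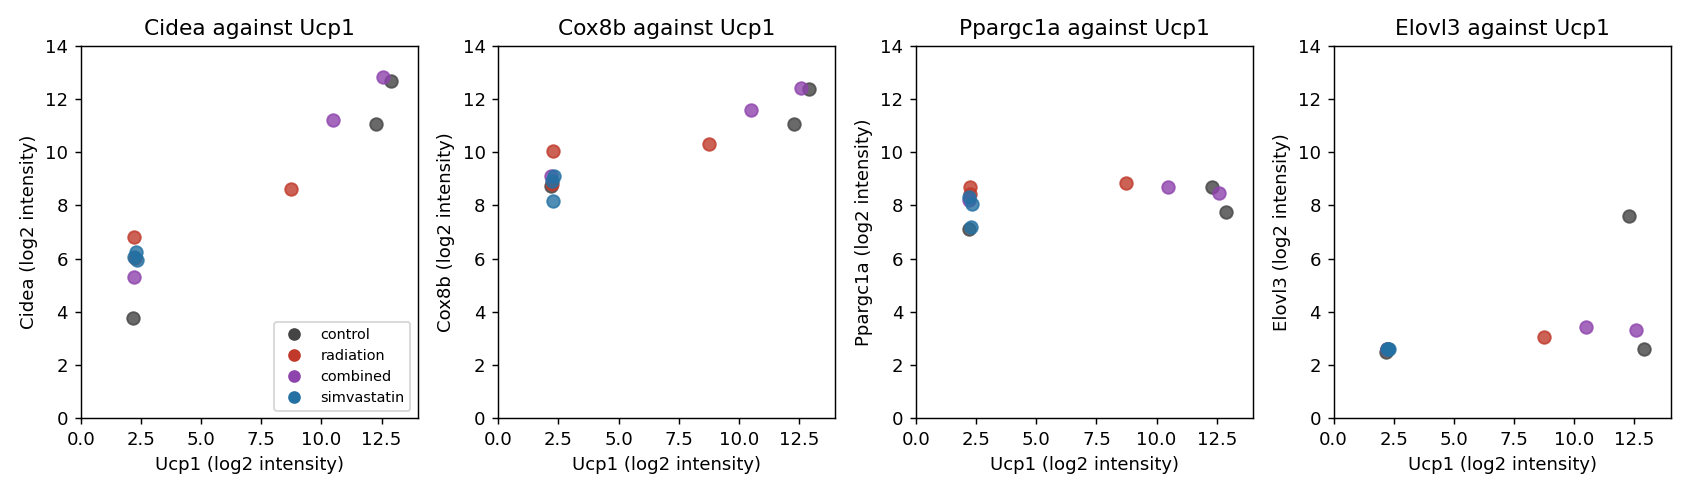
Log2 intensity of Cidea, Cox8b, Ppargc1a and Elovl3 (vertical axes) against Ucp1 (horizontal axis), 1 point per array, coloured by labelled group. Cidea and Cox8b are highest where Ucp1 reads 8.74 or more, Ppargc1a reads 7.77 to 8.83 on those arrays and 7.10 to 8.69 on the others, and Elovl3 is high on control 3 alone.

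Likeness was measured by Pearson's r over 11 samples, which contrasts 5 samples with Ucp1 above background and 6 without. These values describe the pattern and carry no p. Ucp1 had r = 0.959 with Cidea, 0.932 with Cox7a1, 0.928 with Cox8b, 0.80 with Dio2, 0.753 with Fabp3, 0.531 with Elovl3 and 0.366 with Ppargc1a. The highest r between any members was 0.972, for Cox7a1 with Cox8b. The lowest was 0.334, for Cox8b with Elovl3. Dio2 and Elovl3 had r = 0.767 with each other, and Ppargc1a was nearest to Fabp3, at 0.755.

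Among 11595 other genes, 526 (4.54%) had r above 0.7 with Ucp1 and 39 (0.34%) above 0.9. The 10 highest were Uqcrfs1 (0.951), Cox5b (0.950), Letmd1 (0.947), Ndufb8 (0.945), Otop1 (0.945), Ndufa5 (0.941), Psph (0.940), Ndufv3 (0.940), Atp5j2 (0.939) and Gpd1 (0.938). Of these, 6 encode parts of the respiratory chain or ATP synthase: Uqcrfs1 in complex III, Cox5b in complex IV, Ndufb8, Ndufa5 and Ndufv3 in complex I, and Atp5j2. Their changes were small: Uqcrfs1 ranged from 11.70 to 12.95 and Cox5b from 13.05 to 13.91. Otop1, a proton channel gene known from brown fat, had a wider range. It read 6.94 on control 1, 6.85 on control 3, 8.36 on combined 1, 5.95 on combined 2 and 3.29 on radiation 2, and between 2.40 and 2.47 on the other 7 arrays. Gpd1, which makes the glycerol backbone of triglycerides, ranged from 7.71 to 12.52. Against the mean profile of the 8 members, the 10 nearest genes were Ndufb8, Cox5b, Cpt2, Ndufa5, Slc27a2, Gpd1, Ndufv2, Uqcrq, Ndufv3 and Ndufa12, with r from 0.951 to 0.967. Cpt2 imports fatty acids into mitochondria, Slc27a2 activates and takes up fatty acids, and 7 of the 10 belong to the respiratory chain.

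Other genes of the brown fat programme showed that the arrays with Ucp1 were not all alike. Of 9 listed transcription factors, 5 passed the filter on low values. Ppara, a receptor for fatty acids, was highest on combined 1, at 9.90, and read 8.87 on control 1, 8.51 on control 3 and 6.48 on control 2. Prdm16, a brown fat determinant also made in other cells, was lowest on control 1, at 8.31, and between 8.61 and 10.11 elsewhere (r = -0.351 with Ucp1). The other factors that passed had a positive r with Ucp1: 0.866 for Ppara, 0.721 for Irf4, 0.665 for Esrra and 0.38 for Esrrg. The median r of the 5 was 0.665. Ebf2, a determinant of brown adipocytes, read 5.73 on control 1, 4.94 on combined 1 and 4.65 on combined 2. It read 2.98 on control 3 and 2.71 on radiation 2, although Ucp1 was high there. Zic1, a marker of the classical brown depots, did not exceed 3.0 on any array, and Lhx8, another such marker, did not exceed 3.16.

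The receptor, fuel and secreted genes held 15 names, of which 12 had a probe set and 10 passed the filter. Of these 12, 8 were highest on combined 1 and 3 on control 3. Slc27a2 read 8.02 on combined 1, 6.74 on control 3, 6.73 on control 1, 6.01 on combined 2 and 5.24 on radiation 2, and at most 4.51 on the other 7 arrays. Nrg4, a growth factor secreted by brown adipocytes, read 7.95 on combined 1, 6.80 on combined 2 and 5.04 on control 1. On control 3 it read 2.92, within the range of 2.56 to 2.92 that held on the other 9 arrays. Nrg4 and Ebf2 therefore separated control 3 from control 1, while Elovl3 and Dio2 were higher on control 3. Ucp3, the muscle relative of Ucp1, reached 5.40 on combined 1 and 4.61 on combined 2 and did not pass the filter.

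Of 16 genes shared by all fat that had a probe set, 15 passed the filter. These were above the median of all values on every array, except Pck1 (3.69) and Retn (4.25) on control 2. Lep did not pass and stayed between 2.30 and 2.45 on every array. Adipoq, the gene of the fat hormone adiponectin, read 13.79 on control 1 and 7.19 on control 2. It read 11.86 on combined 3 and 11.79, 10.19 and 11.77 on the simvastatin arrays, where Ucp1 was at background, beside 10.22 on radiation 2, where Ucp1 was 8.74. Adipoq was thus well above the median of all values on every array, control 2 being the lowest. As r with Ucp1, 15 adipocyte genes ranged from 0.242 to 0.867, with Pparg, the master regulator of fat cells, the highest. Their median was 0.707. Dgat2 had r = 0.858, Pck1 0.790, Thrsp 0.781 and Slc2a4 0.778, while Adipoq had 0.652 and Cebpa 0.243. For 10 fatty acid oxidation genes r ranged from 0.761 to 0.928 and for 15 mitochondrial genes made in most cells from 0.702 to 0.950. For 8 lung markers it ranged from -0.70 to -0.333.

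Markers of other tissues moved with the brown fat genes on some arrays and apart from them on others. Acta1, skeletal muscle actin, was 12.79 to 14.90 on all 5 arrays with Ucp1 above background. It was also 14.26 on control 2 and 13.90 on radiation 1, where Ucp1 was not detected. For the whole list of 13 skeletal muscle markers, the mean level relative to 12 arrays ran from 1.59 to 2.98 in controls, -3.87 to 2.65 after radiation, -3.50 to 3.68 in the combined group and -4.06 to -3.42 with simvastatin. The adipocyte list ran from -2.20 to 1.17 in controls, -0.58 to -0.22 after radiation, -0.11 to 1.69 in the combined group and -1.02 to -0.18 with simvastatin. The 7 tested brown fat genes ran from -2.09 to 2.20, -1.22 to 0.66, -1.23 to 2.56 and -1.71 to -1.14 in the same order of groups. Cardiac markers, of which 10 of 12 passed the filter, ran from -1.83 to 1.13, -0.28 to 0.32, 0.13 to 0.74 and -1.39 to 0.09. Squamous epithelium markers, 6 of 8, ran from -1.04 to 4.99 in controls, -3.20 to 2.45 after radiation, -3.15 to 4.95 in the combined group and -3.36 to -3.23 with simvastatin. Of 7 thymocyte markers, all were highest on control 1 and 1 passed the filter. The part of other tissues in the brown fat values was not tested, and in whole lung fewer cells of a type and less RNA per cell cannot be told apart.

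**Figure D3:**
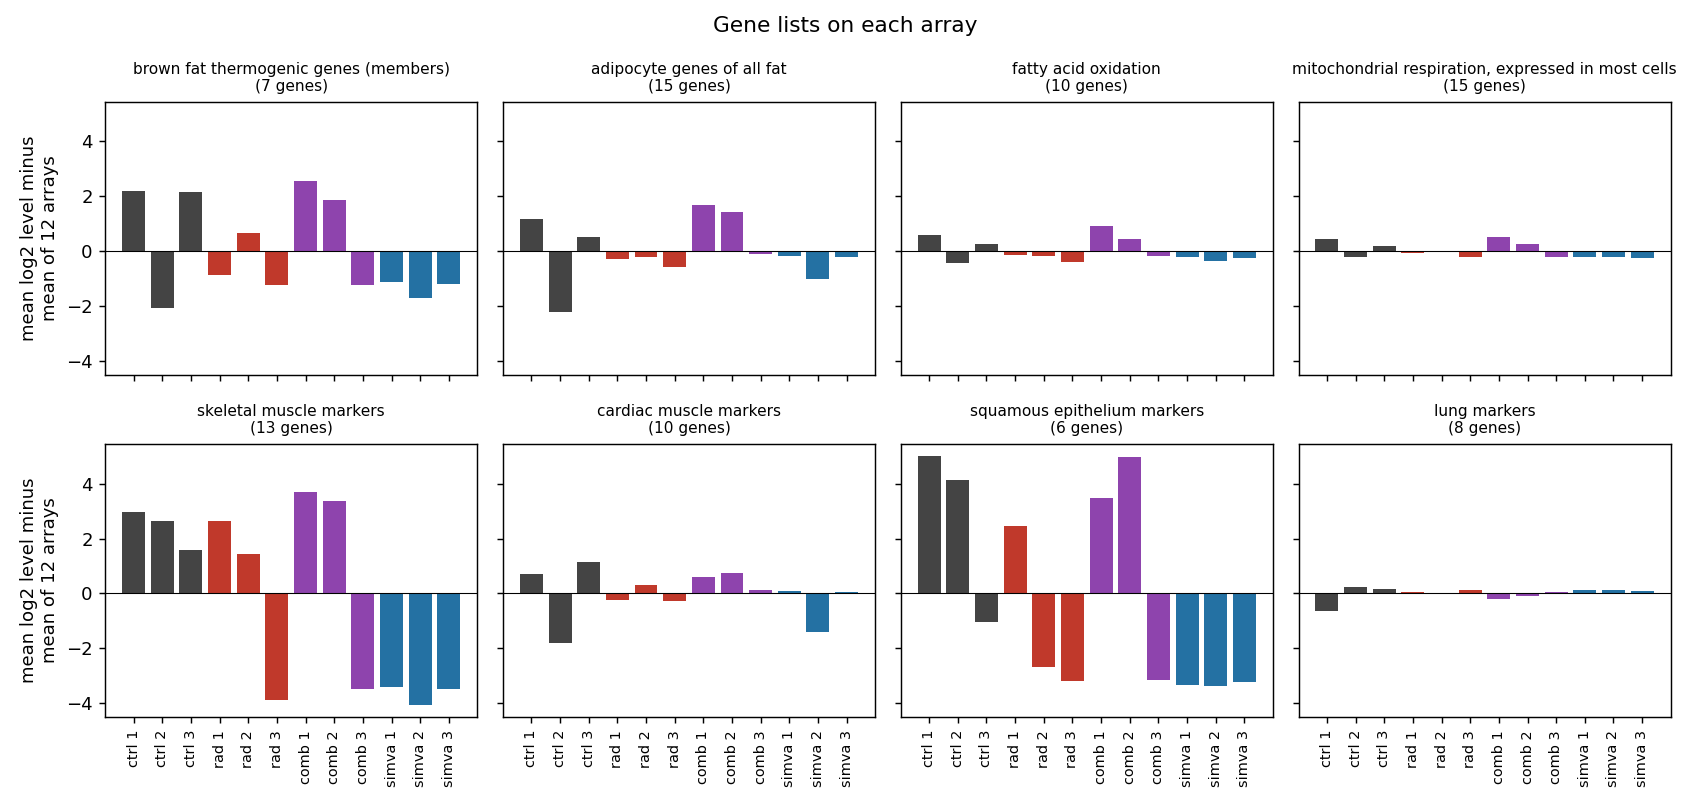
Mean log2 level of each gene list minus its mean over 12 arrays (vertical axis), 1 bar per array, coloured by labelled group, with the number of genes averaged. The brown fat genes are at 2.17 to 2.20 on control 1 and control 3 and at -2.09 on control 2, while skeletal muscle markers are high on all 3 controls.

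Radiation minus control asked whether irradiated lungs differed 6 weeks after 25 Gy. In limma's fit 0 of 7 tested brown fat genes passed (adjusted p under 0.05), where 0% of 11602 genes did, so the count says nothing particular about them. At an unadjusted p under 0.05, 600 genes were found. Of the 7, 5 lay below 0, with a median of -1.0 beside 0.08 for all genes. Ucp1 differed by -4.71 ± 3.35 (SE) and Cidea by -2.01 ± 2.36, both within the spread of arrays. Ppargc1a differed by 0.80 ± 0.40, from 7.86 ± 0.80 (SD, n = 3) to 8.66 ± 0.19 (SD, n = 3), with a limma adjusted p of 0.751. Groups overlapped for all 7 genes, where 6.90% of genes did not overlap. With array weights Ppargc1a passed, 1 of 7, where 1241 of 11602 genes did, and the median turned to 1.14. Without control 1 the median was -0.17.

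Simvastatin minus control compared the drug alone with vehicle. All 7 genes lay below 0, with a median of -1.59 beside 0.00 for all genes, but 0 of 7 passed limma's test and 0% of all genes (214 at an unadjusted p under 0.05). Ucp1 differed by -6.85 ± 3.74 (SE) and Cox8b by -2.13 ± 1.13, both with a limma adjusted p of 0.99. Control 2 lay at the level of the simvastatin arrays for Ucp1 and Cox8b, so the groups overlapped, as they did for all 7 genes. Of all genes, 11.3% did not overlap, or 9.20% with all 12 arrays taken singly, where the 7 overlapped too. With array weights the median was -0.10. Other fat lists moved less: adipocyte genes lay below 0 in 12 of 15 cases, with a median of -0.19. Brown fat receptor, fuel and secreted genes did so in 8 of 10 (-0.36) and brown fat transcription factors in 3 of 5 (-0.12). Lung markers lay above 0 in 8 of 8, with a median of 0.07. Fatty acid oxidation genes lay below 0 in 10 of 10 cases, with a median of -0.44. Mitochondrial genes made in most cells did so in 15 of 15, with a median of -0.34. Markers of skeletal muscle lay further below, in 13 of 13 cases, with a median of -6.02, and those of squamous epithelium in 6 of 6, with a median of -4.82. Cardiac markers did not: they lay below 0 in 8 of 10 cases, with a median of -0.18. The 1 tested thymocyte marker differed by -2.76. None of these genes passed, and the part of these tissues in the brown fat values was not tested.

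Combined minus control compared irradiated lungs under the drug with vehicle. The median of the 7 was 0.37 beside 0.00 for all genes, 6 lay above 0, and 0 of 7 passed limma's test, as did 0% of all genes (327 at an unadjusted p under 0.05). Ucp1 differed by -0.70 ± 3.35 (SE). Groups overlapped for all 7 genes, and 6.54% of genes did not overlap. Without control 2 the median was -0.57 and without combined 1 it was -0.20, so its direction rested on those arrays. It was 0.98 without control 1, 1.01 without control 3, 0.03 without combined 2, 1.12 without combined 3 and 2.19 with array weights. Adipocyte genes lay above 0 in 15 of 15 cases, with a median of 1.07 and none passing.

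Combined minus radiation asked what the drug changed in irradiated lungs. Here 6 of 7 genes lay above 0, with a median of 1.31 beside -0.09 for all genes, and 0 of 7 passed limma's test, as did 0% of all genes (518 at an unadjusted p under 0.05). Ucp1 differed by 4.02 ± 3.35 (SE), Cidea by 2.63 ± 2.36 and Dio2 by 1.52 ± 0.84, with limma adjusted p of 0.838, 0.850 and 0.835. Combined 3 lay within the range of the radiation arrays or below it for all 7, and the groups overlapped for all of them, where 17.2% of genes did not overlap. Without combined 1 the median was 0.62 and without combined 3 it was 2.27. With array weights Dio2 passed, 1 of 7, where 1172 of 11602 genes did. Dio2 was above the median of all values on 3 arrays, the fewest the filter allows: control 3, combined 1 and combined 2. Skeletal muscle markers lay above 0 in 13 of 13 cases (median 1.17), squamous markers in 6 of 6 (2.71) and adipocyte genes in 15 of 15 (1.38). Lung markers did so in 3 of 8, with a median of -0.13.

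Combined minus simvastatin compared irradiated with unirradiated lungs under the drug. All 7 genes lay above 0, with a median of 1.90 beside 0.00 for all genes, and 0 of 7 passed limma's test, as did 0% of all genes (153 at an unadjusted p under 0.05). Cox8b differed by 2.44 ± 1.13 (SE), Cox7a1 by 1.90 ± 0.93 and Ucp1 by 6.15 ± 3.74, each with a limma adjusted p of 1. Over all 12 arrays the groups did not overlap for Cox7a1 and Cox8b, 2 of 7, where 9.69% of genes did not overlap. With simvastatin 1 and 3 averaged, Dio2 and Ppargc1a did not overlap either, which made 4 of 7 where 14.5% of genes did not. On the single arrays simvastatin 1 read 3.30 for Dio2 against 3.22 on combined 3, and simvastatin 3 read 8.31 for Ppargc1a against 8.21. The margins of the others were small too: combined 3, the lowest combined array, read 9.17 for Cox7a1 against 9.15 on simvastatin 1, its near-identical array, and 9.10 against 9.09 for Cox8b. Other lists also lay above 0: skeletal muscle markers in 13 of 13 cases (median 4.74), squamous markers in 6 of 6 (4.56) and adipocyte genes in 15 of 15 (1.98). Lung markers lay below 0 in 8 of 8, with a median of -0.15.

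The interaction of radiation with simvastatin set the difference made by radiation under the drug against that without it. The median of the 7 was 2.70 beside -0.09 for all genes, and 6 lay above 0. In limma's fit 0 of 7 passed, as did 0% of all genes (377 at an unadjusted p under 0.05). Ucp1 gave 10.86 ± 5.02 (SE), Cox8b 3.44 ± 1.51 and Ppargc1a -0.05 ± 0.59, the first 2 with a limma adjusted p of 0.882. These comparisons share samples, so their values are not independent of each other. Skeletal muscle markers lay above 0 in the interaction in 13 of 13 cases, with a median of 7.74. Squamous markers did so in 6 of 6, with a median of 6.90, and adipocyte genes in 14 of 15, with 1.56. Lung markers did so in 1 of 8, with a median of -0.32. The part of these tissues in the brown fat values was not tested.

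**Figure D4:**
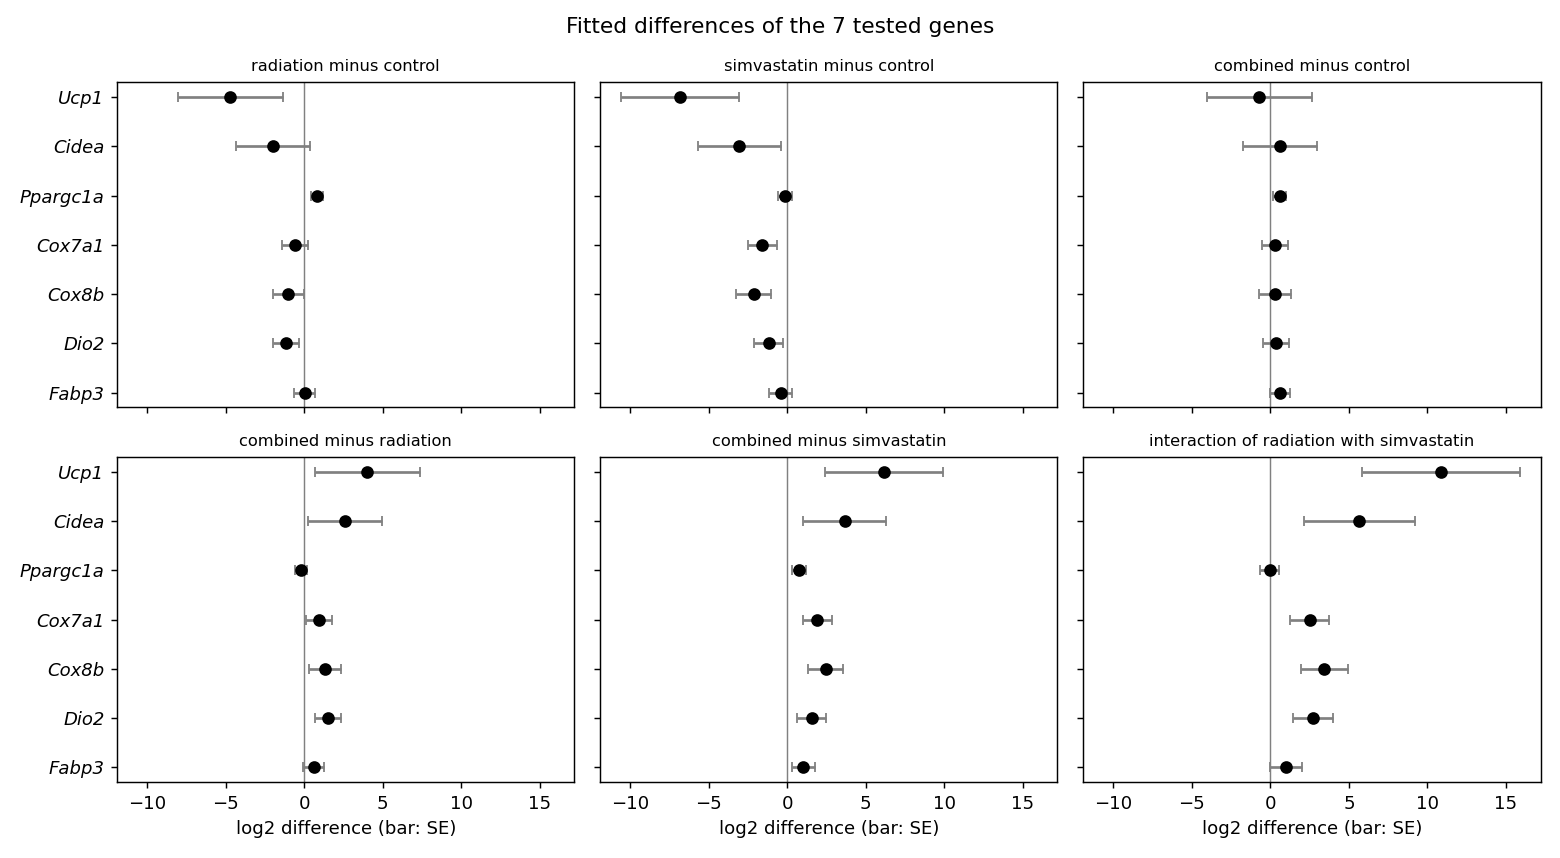
Fitted log2 differences (horizontal axis) of the 7 tested genes in 6 comparisons, points with SE bars from limma. Ucp1 has the widest bars, with an SE of 3.35 to 5.02, and Ppargc1a the narrowest, with 0.40 to 0.59.

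Control 3, combined 3 and simvastatin 2, whose Cdkn1a went against the label, were also removed together. This left only the average of simvastatin 1 and 3 in the simvastatin group, so the sizes of the differences are given here. The medians of the 7 were then -0.24 for radiation minus control, -0.71 for simvastatin minus control and 1.44 for combined minus control. They were 2.27 for combined minus radiation, 2.27 for combined minus simvastatin and 2.51 for the interaction.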

How the data were processed

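RNA of mouse lung was measured on 12 Affymetrix arrays, 3 in each of 4 labelled groups. The deposited values are log2 intensities, and the submitters' processing notes name MAS5 and GCRMA; no version is given in the sources used here. In all there were 45101 probe sets, of which 34958 had 1 gene symbol and 64 were Affymetrix controls. A probe set was kept when above the median of all values on at least 3 of 12 arrays, which left 11602 genes, 7 of the 8 members among them. limma 3.58.1 (R 4.3.3) fitted group means to 11 samples with 7 residual degrees of freedom, with eBayes and a trend. P-values are two-sided with Benjamini-Hochberg adjustment over all genes and a threshold of 0.05. The fit was tested on simulated data with independent normal noise for each gene. Such data lack the shared variation between genes, the near-identical arrays and the high-or-background values seen here, so that test does not cover them. The number of arrays limits the precision. Members and lists were chosen with earlier results of these data known. Named genes are the members, the 10 genes most like Ucp1 and the 10 most like the members' mean, and widespread counterparts of members. The plan also allowed up to 4 genes of largest range in each list, but only some of these are named. Which of them to name, and other genes from these lists such as Prdm16, Zic1, Lhx8, Lep, Dgat2 and Pparg, were chosen after their values were seen. The array values carry no genome build, and promoters are from RefSeq. Replicate numbers were checked by correlating deviations from group means: all 3 control-combined pairs exceeded 0.1 (0.318, 0.287 and 0.408), so that comparison was also fitted with the number as a block. The pairing comes from the data, since the labels give only numbers. Alternatives covered scaling, filters, weights, the replicate block and each array left out; leaving out 3 arrays together and the control-combined block were added after seeing the data.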

Additional observations from a re-analysis of the deposited data

How the results depend on the processing

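In 21 alternative settings, 0 of the 7 tested members passed limma's test except with array weights, when Ppargc1a passed in radiation minus control and Dio2 in combined minus radiation. With array weights limma called 1241 of 11602 genes in radiation minus control, 43 in combined minus control and 1172 in combined minus radiation. The members' median was 1.14 in the first and 2.19 in the second, and the cause was not tested. Without control 3, combined 3 and simvastatin 2, a choice made after seeing the data, 9 genes were called in radiation minus control and 2 in combined minus control. Leaving out 1 array at a time gave 0 to 1 called genes in radiation minus control, combined minus control and the interaction, the 1 without control 3, and 0 in the other comparisons. The median of the members then ran from -1.83 to -0.17 in radiation minus control, -2.47 to -1.15 in simvastatin minus control, -0.57 to 1.12 in combined minus control, 0.62 to 2.27 in combined minus radiation, 1.38 to 2.57 in combined minus simvastatin and 2.09 to 3.45 in the interaction. After centring each array on its median, the median over all genes was 0.36 in radiation minus control and -0.45 in combined minus radiation and in the interaction, where the members' medians were -0.73, 0.95 and 2.34. Of 18 same-numbered pairs, 8 had a correlation over 0.1 (range -0.259 to 0.408), and 8 of 12 arrays correlated best with an array of their own number. All 3 pairs exceeded 0.1 between control and combined, and not in the other comparisons. With the replicate number as a block in the control and combined arrays alone, 0 genes were called (248 at an unadjusted p under 0.05) and the members' median was 0.37. With the block over 12 arrays, 0 genes were called in all 6 comparisons, and the members' medians were -1.0, -1.43, 0.37, 1.31, 1.75 and 2.69. The pairing changed no call. Low signal limits Ucp1, which was under the 25th percentile on 7 arrays, and Elovl3.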

Other observations

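Elovl3 stood apart on control 3 in a way that few genes did. Of 18193 genes, 2 exceeded every other array by more than 3 log2 units on control 3: Elovl3, at 7.61 against at most 3.43 elsewhere, and Nppb, the gene of the heart peptide BNP, at 8.04 against at most 3.20. The same count was 148 on control 1, where thymocyte markers were highest, 3 on combined 1, 2 on radiation 1, 1 on combined 2 and 0 on the other 7 arrays. This count was chosen after seeing the data and has no test.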
